A study of Mus musculus with 6 samples.

Results

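The genes described here encode the enzymes that write and erase marks on histones and on DNA. They were taken from the deposited table by symbol alone: every symbol beginning with Kdm, Kmt, Setd, Hdac, Sirt, Kat or Prmt and a digit, the genes Tet1, Tet2 and Tet3, every symbol beginning with Dnmt1 or Dnmt3, and Ezh1, Ezh2, Ep300 and Crebbp. This gave 80 of the 22272 symbols in the table, and 76 of the 80 held enough counts to be tested. The study compared 2 groups of C2C12 cells, a mouse myoblast line, as bulk RNA libraries. The control group carried GFP, and the other group overexpressed ChREBP-beta, a shorter isoform of the glucose-responsive transcription factor encoded by Mlxipl. Both groups were undifferentiated wild-type cells at day 0 of differentiation, with 3 libraries each. The title of the series places the work in the study of ChREBP and intramuscular fat in mice and broiler chickens. The means of overexpression, and whether the 3 libraries of a group came from separate cultures, are not stated in the labels. P-values therefore measure no more than the spread among these libraries, which may be technical.

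Acetyltransferases add acetyl groups to histone lysines, which loosens chromatin and recruits reader proteins, and deacetylases and NAD-dependent sirtuins remove them. Methyltransferases place methyl groups on lysines or arginines, where the outcome depends on the residue, and demethylases take them off. Dnmt enzymes methylate cytosine in DNA and Tet enzymes oxidise that methyl group. In myoblasts these enzymes are known for holding muscle genes silent or poised until differentiation, through Polycomb methylation and the binding of class IIa deacetylases to Mef2 factors.

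The libraries held between 17600238 and 19163834 counts. Levels are given as CPM, counts scaled to a common library total, with library sizes scaled by the trimmed mean of M-values (TMM), and tests are edgeR's quasi-likelihood test, two-sided, with Benjamini-Hochberg adjustment over all 12166 genes tested. A gene is called when its adjusted p is under 0.05. Mlxipl, the overexpressed gene, stood at 0.576, 0.719 and 0.501 CPM in the GFP libraries and at 222, 215 and 220 CPM in the ChREBP-beta libraries, so every library carried the level its label states. The summed level of 6 myoblast markers was 306 to 338 CPM with GFP and 87.2 to 94.7 CPM with ChREBP-beta, and that of the fibroblast markers was 642 to 721 and 865 to 911 CPM. Most of the fibroblast sum was Col1a1, at 650 and 842 CPM on average, while Dcn of the same list went from 8.30 to 2.12 CPM. Myod1, a defining myoblast factor, averaged 30.8 and 1.23 CPM. Summed lung markers ranged from 0.523 to 133 CPM among the GFP libraries and from 67.9 to 89.4 CPM among the ChREBP-beta libraries. Summed liver markers ranged from 0 to 21.5 and from 12.6 to 18.3 CPM. The lung marker Scgb1a1 had 3, 1734 and 1032 counts in GFP replicates 1, 2 and 3. The liver marker Alb had 2, 0 and 292 counts there and 273, 208 and 169 with ChREBP-beta, so its presence partly went with the group. The source of these lung and liver transcripts was not tested. Leukocyte and endothelial sums stayed between 0.733 and 5.10 CPM and blood sums between 3.35 and 10.1 CPM. The adipocyte sum was 0.209 to 0.669 CPM with GFP and 2.26 to 3.48 CPM with ChREBP-beta, and its marker Lep was at 0 in every library. The part of these differences in the results on the enzymes was not tested. In bulk RNA, fewer cells of a type and less RNA per cell cannot be told apart.

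Of the 76 tested enzyme genes, 44 were called between the groups (57.9%), against 58.7% of all genes tested. With ChREBP-beta, 14 of them rose (18.4%), where 29.5% of all genes were called higher, and 30 fell (39.5%), where 29.3% of all genes were called lower. The share of the called enzymes that rose was 31.8%. It was 21.7% (10 higher, 36 lower) when libraries were scaled by their total counts alone, and 44.2% (19 higher, 24 lower) with an offset for transcript length and GC content, so the balance of directions moved with the scaling, with more falls than rises in each of these 3 fits. The corresponding share over all called genes was 50.2%, 41.8% and 58.4%. The median log2 fold change of the enzymes was -0.08, beside -0.004 over all genes tested. Most changes were small: the median absolute log2 fold change was 0.20 for the enzymes and 0.23 for all genes, and 36 of the 44 called enzymes differed by less than 1.5-fold. Both the test and 1.5-fold were passed by 8 enzymes (10.5%), 3 higher and 5 lower, beside 19.8% of all genes (7.46% higher and 12.4% lower). The libraries of the groups did not overlap for 49 of the 76 enzymes (64.5%), against 63.2% of all genes.

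**Figure D1:**
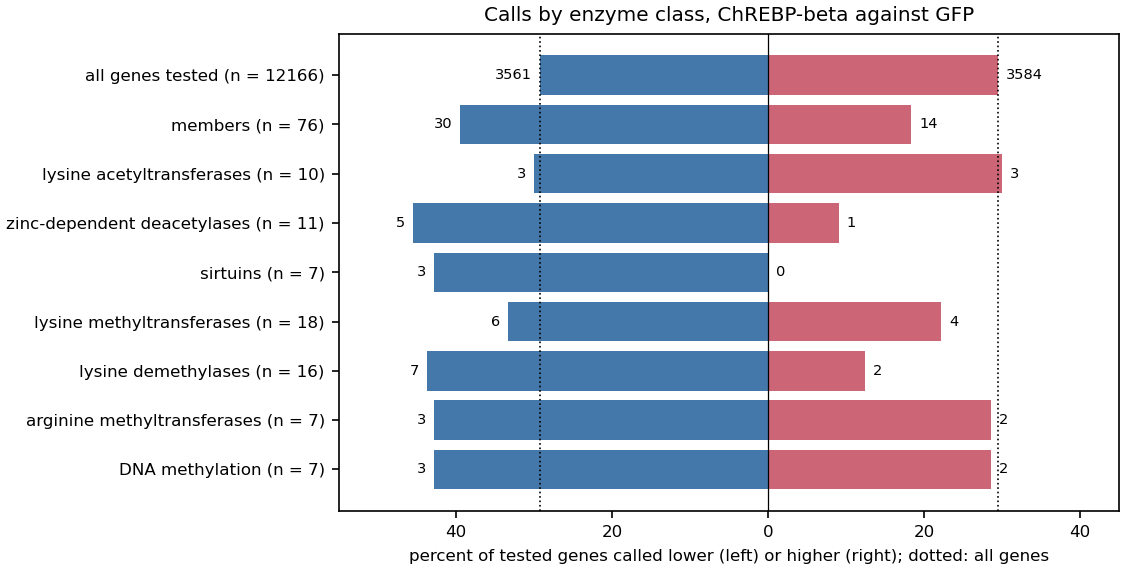
Share of the tested genes of each enzyme class that were called lower (bars to the left) or higher (bars to the right) with ChREBP-beta, in percent, with the number of genes at each bar end. The dotted lines are the shares of all 12166 tested genes. No sirtuin gene was called higher, 5 of 11 zinc-dependent deacetylases were called lower, and acetyltransferases were called 3 higher and 3 lower.

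The 3 enzymes that rose at least 1.5-fold were Dnmt3l, Hdac11 and Kdm8. The 5 that fell at least 1.5-fold were Tet1, Hdac9, Ezh1, Sirt4 and Kat6b. Of these 8 genes, Dnmt3l, Hdac11, Sirt4 and Hdac9 were weakly expressed, and none of the 4 exceeded 7.23 CPM in any library. Each of the 8 was called, in the same direction, under every alternative that tested it. The 1.5-fold limit was less settled. Kat6b and Kdm8 were under it in at least 1 alternative, and Kmt2c, at 1.49-fold here, was past it in at least 1. Dnmt3l, Hdac11, Sirt4 and Hdac9 were not tested where a mean of at least 5 CPM was asked.

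**Figure D2:**
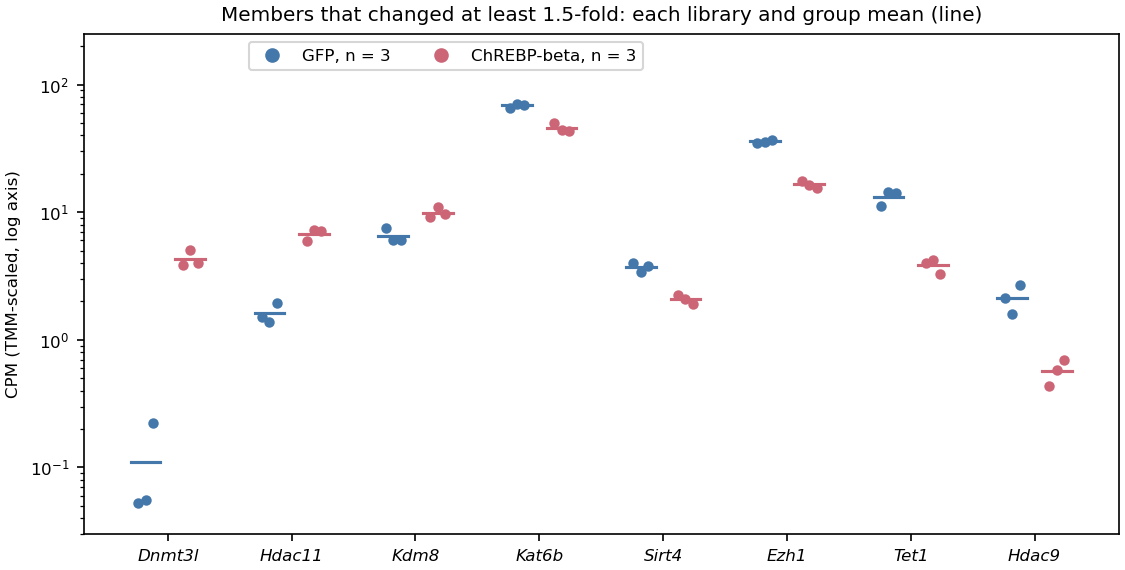
CPM on a log axis of the 8 enzyme genes that changed at least 1.5-fold, with 1 point per library (GFP blue, ChREBP-beta red, n = 3 each) and a line at each group mean. The points of the groups are apart for every gene shown, from Dnmt3l at 0.110 and 4.30 CPM to Hdac9 at 2.14 and 0.571 CPM.

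The 7 tested genes of DNA methylation held both the largest rise and the second largest fall among the enzymes. Of the 7, 2 rose (28.6%, against 29.5% of all genes), 3 fell (42.9%, against 29.3%) and 2 were not called. Dnmt3l encodes a regulatory relative of the de novo DNA methyltransferases that lacks catalytic activity of its own, stimulates Dnmt3a and Dnmt3b, and is known from germ cells and embryonic stem cells. It lies on chromosome 10 at 78041947 to 78063622 on the plus strand (GRCm38, GENCODE M21). Its counts were 1, 1 and 4 in the GFP libraries and 71, 95 and 69 in the ChREBP-beta libraries, or 0.0523, 0.0553 and 0.223 CPM against 3.86, 5.05 and 3.99 CPM. All 3 ChREBP-beta libraries were above all 3 GFP libraries, in which the gene was near the limit of detection. The rise was 5.22 ± 0.424 (SE) on the log2 scale, 37.2-fold (edgeR adjusted p = 1.32e-10), and the ratio of summed counts, scaled for depth, was 39.6 with an exact 95% counting interval of 17.9 to 109, which covers counting error only. GFP replicate 3 held 4 of the 6 GFP counts, and without it the log2 fold change was 6.16, so the size of the fold rests on few counts.

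Tet1 moved the other way. It encodes a dioxygenase that converts methylated cytosine to its hydroxymethyl form, and lies on chromosome 10 at 62804570 to 62908996 on the minus strand. The GFP libraries held 11.1, 14.4 and 14.2 CPM and the ChREBP-beta libraries 3.97, 4.20 and 3.30 CPM. No library of the one group reached the range of the other. Tet1 fell by 1.78 ± 0.143 (SE) on the log2 scale, 3.44-fold (edgeR adjusted p = 9.51e-11). Its relatives fell by smaller folds. Tet2 stood at 47.7, 47.2 and 44.5 CPM with GFP and at 38.4, 32.1 and 39.3 CPM with ChREBP-beta, 1.27-fold lower (edgeR adjusted p = 8.86e-05). Tet3 went from 73.3, 77.3 and 78.3 CPM to 65.7, 61.8 and 67.4 CPM, 1.18-fold lower (edgeR adjusted p = 0.000138).

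Dnmt1, the maintenance methyltransferase that copies methylation after replication, was at 191, 193 and 190 CPM with GFP and at 204, 202 and 209 CPM with ChREBP-beta, a rise of 0.10 on the log2 scale (edgeR adjusted p = 0.0083) that was not called under every alternative. The catalytic de novo enzymes were not called: Dnmt3a averaged 14.9 and 13.7 CPM (edgeR adjusted p = 0.32) and Dnmt3b 4.11 and 4.97 CPM (edgeR adjusted p = 0.214). Dnmt3c, a rodent gene of the male germ line, had 0 counts in all 6 libraries.

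Levels within a family can be set side by side only per transcript length, as CPM per kilobase. On that scale Dnmt3l made up 2.29% ± 1.87 (SD, n = 3) of the summed level of Dnmt3a, Dnmt3b and Dnmt3l with GFP and 47.8% ± 5.06 with ChREBP-beta, while the sum went from 2.55 ± 0.249 to 4.92 ± 0.223 CPM per kilobase. Tet1 was the smallest of the Tet genes in both groups, at 7.08% ± 0.837 and 2.62% ± 0.472 of the Tet sum, which was 13.0 ± 0.279 and 10.2 ± 0.655 CPM per kilobase. Dnmt1 made up 92.8% of all Dnmt level with GFP and 87.6% with ChREBP-beta. These shares restate the single-gene levels and were not tested again.

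**Figure D3:**
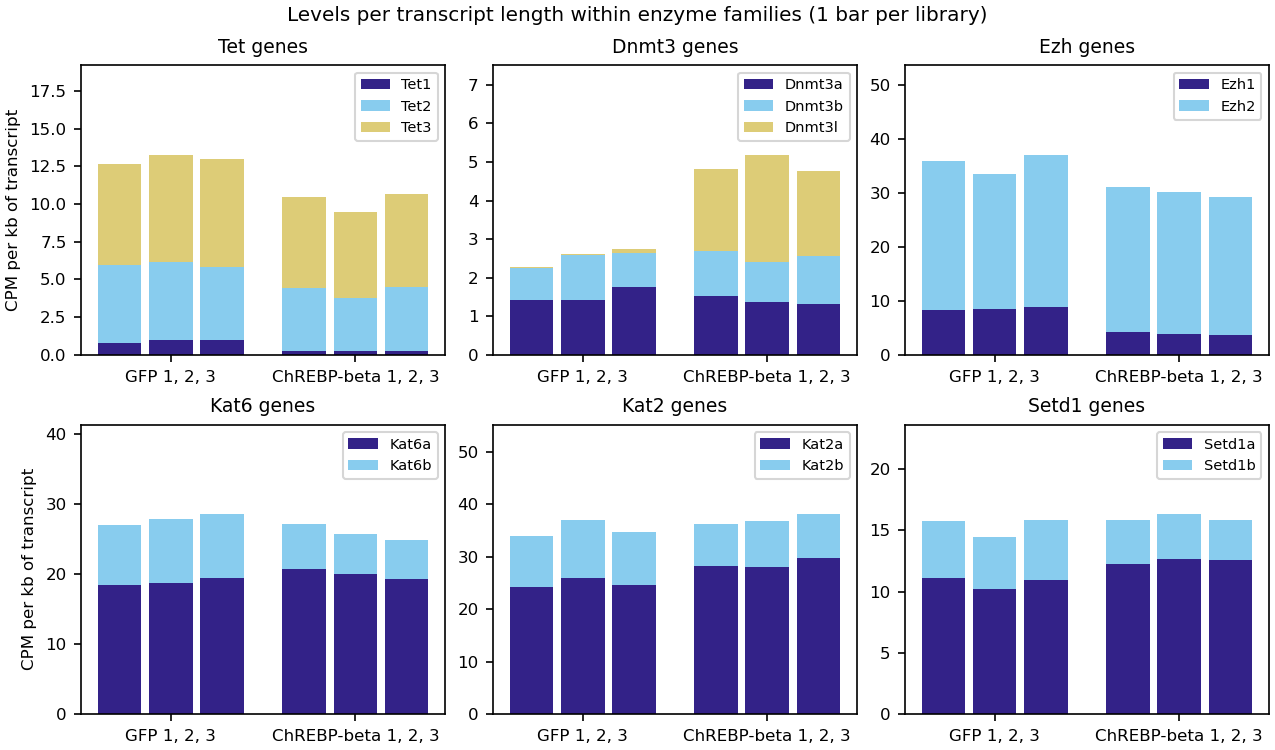
CPM per kilobase of transcript in 6 enzyme families, stacked by gene, with 1 bar per library (GFP replicates 1, 2 and 3 on the left, ChREBP-beta replicates 1, 2 and 3 on the right). Dnmt3l appears as a visible part of the Dnmt3 sum in the ChREBP-beta libraries, and the Ezh1, Kat6b, Kat2b and Setd1b parts are smaller there.

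ChREBP binds DNA with its partner Mlx at pairs of E-box-like elements, whose full form is the hexamer CACGTG. RefSeq promoter windows on GRCm38.p6, each running from 250 bases before to 50 bases after a start site, were found for 67 of the 80 enzymes (94 windows). The letters CACGTG, which read the same on both strands, occurred in 9 of the 94 windows (9.57%), in 9.75% of the windows of all tested genes and in 7.15% of all windows in the table. The 9 windows belonged to 9 enzymes, of which Dnmt3l and Prmt3 rose, Hdac5, Kat5, Kdm6a, Prmt1 and Sirt1 fell, and Dnmt3a and Kdm4c were not called. Those of Sirt1 and Kdm4c each held it at 2 positions. A search of the windows for the paired element found 0 among the enzymes and 0 among all windows in the table. The 2 positions in Sirt1 and in Kdm4c were therefore not read as such a pair. The windows of the enzymes thus held the hexamer about as often as those of other tested genes, and enzymes in both directions carried it. A match of letters is a description and not a binding site. The windows of the 2 enzymes that rose with the hexamer, of Sirt1, which fell and holds it at 2 positions, and of Hdac11, which rose without it, are printed 5′ to 3′ on the gene's strand with CACGTG in capitals.

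Dnmt3l, chr10:78049592-78049891, plus strand: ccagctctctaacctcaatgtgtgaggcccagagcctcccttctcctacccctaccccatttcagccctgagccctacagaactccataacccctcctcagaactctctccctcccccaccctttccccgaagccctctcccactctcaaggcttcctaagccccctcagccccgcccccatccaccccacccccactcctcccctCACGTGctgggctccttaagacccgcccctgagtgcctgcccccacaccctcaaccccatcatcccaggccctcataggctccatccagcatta
Prmt3, chr7:49778108-49778407, plus strand: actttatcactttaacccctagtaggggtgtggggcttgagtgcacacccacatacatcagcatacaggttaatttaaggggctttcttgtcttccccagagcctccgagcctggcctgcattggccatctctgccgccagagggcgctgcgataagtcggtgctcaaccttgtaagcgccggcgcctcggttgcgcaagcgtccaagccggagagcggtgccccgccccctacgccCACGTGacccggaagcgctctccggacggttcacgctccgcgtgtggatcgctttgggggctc
Sirt1, chr10:63338986-63339285, minus strand: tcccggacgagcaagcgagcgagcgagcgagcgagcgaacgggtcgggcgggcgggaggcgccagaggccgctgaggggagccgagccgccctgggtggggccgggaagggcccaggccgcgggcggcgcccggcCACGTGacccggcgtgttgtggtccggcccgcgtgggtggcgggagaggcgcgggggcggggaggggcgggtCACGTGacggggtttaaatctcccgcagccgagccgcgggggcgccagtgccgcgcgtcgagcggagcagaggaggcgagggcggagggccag
Hdac11, chr6:91156565-91156864, plus strand: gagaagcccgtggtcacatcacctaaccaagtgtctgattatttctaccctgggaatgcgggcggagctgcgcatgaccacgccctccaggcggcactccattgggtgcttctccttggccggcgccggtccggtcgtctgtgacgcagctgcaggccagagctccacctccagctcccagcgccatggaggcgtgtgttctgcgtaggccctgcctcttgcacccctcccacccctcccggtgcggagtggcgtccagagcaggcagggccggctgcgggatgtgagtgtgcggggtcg

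The hexamer begins 44 bases before the start site in the Dnmt3l window, 13 bases before it in that of Prmt3, and 115 and 43 bases before it in that of Sirt1. The Dnmt3l window is 1 of 3 that RefSeq gives for the gene, and the other two lack the hexamer. The printed windows also differ in CpG dinucleotides, the substrate of the Dnmt enzymes: 4 in that of Dnmt3l, 22 in that of Hdac11, 24 in that of Prmt3 and 47 in that of Sirt1, with a median of 21.5 over the windows of the enzymes and 20 over those of tested genes.

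Of the 11 zinc-dependent deacetylases, 1 rose (9.09%, against 29.5% of all genes), 5 fell (45.5%, against 29.3%) and 5 were not called. Hdac11 is the sole class IV member and is known to remove long fatty acyl groups from proteins. It lies on chromosome 6 at 91156665 to 91174692 on the plus strand. Its levels were 1.52, 1.38 and 1.95 CPM with GFP and 5.93, 7.23 and 7.11 CPM with ChREBP-beta, a clear gap between the groups. The rise was 2.06 ± 0.207 (SE) on the log2 scale, 4.17-fold (edgeR adjusted p = 6.23e-09).

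Class IIa deacetylases, which bind Mef2 factors and hold back muscle genes, gave 3 falls (75.0%, against 29.3% of all genes) and 1 gene not called among 4. Hdac9, on chromosome 12 at 34047580 to 34917095 on the minus strand, was at 2.15, 1.60 and 2.67 CPM with GFP and at 0.435, 0.585 and 0.694 CPM with ChREBP-beta. Its counts were low, at 41, 29 and 48 against 8, 11 and 12, yet the groups were separate. Hdac9 fell by 1.90 ± 0.365 (SE) on the log2 scale, 3.73-fold (edgeR adjusted p = 9.21e-05). Hdac7 fell 1.21-fold, from 121 to 101 CPM (edgeR adjusted p = 1.79e-06), and Hdac5 fell 1.15-fold, from 59.1 to 51.6 CPM (edgeR adjusted p = 0.00197). Hdac4 averaged 27.6 and 29.7 CPM (edgeR adjusted p = 0.24).

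In class I, the nuclear enzymes of the large corepressor complexes, Hdac1 fell 1.11-fold from 135 to 122 CPM (edgeR adjusted p = 0.00125). Its close relative Hdac2 averaged 196 and 201 CPM (edgeR adjusted p = 0.399), and Hdac3, the enzyme of the NCoR complexes, 75.8 and 73.7 CPM (edgeR adjusted p = 0.42). Hdac8 was not called. In class IIb, Hdac6, which deacetylates tubulin, fell 1.20-fold from 33.2 to 27.7 CPM (edgeR adjusted p = 0.00164), and Hdac10 was not called.

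Among the sirtuins, NAD-dependent deacylases, 3 of 7 fell (42.9%, against 29.3% of all genes) and none rose. With the length and GC offset, Sirt2 was called higher (edgeR adjusted p = 0.0277), and so it was without ChREBP-beta replicate 1 (edgeR adjusted p = 0.0282). Sirt1, the nuclear enzyme that deacetylates histones and transcription factors, stood at 56.4, 55.0 and 57.0 CPM with GFP and at 46.5, 48.1 and 44.6 CPM with ChREBP-beta. The groups lay apart, and the fall was 1.21-fold (edgeR adjusted p = 7.62e-05). Sirt4, a mitochondrial sirtuin, lies on chromosome 5 at 115478010 to 115484725 on the minus strand. It went from 4.03, 3.37 and 3.79 CPM to 2.23, 2.07 and 1.91 CPM, a fall of 0.85 ± 0.23 (SE) on the log2 scale or 1.80-fold (edgeR adjusted p = 0.00289). Sirt3, the main mitochondrial deacetylase, averaged 5.01 and 3.67 CPM (edgeR adjusted p = 0.0408), but some of its reads were divided with other genes and its call was lost under some alternatives. In the fit of all libraries Sirt2, Sirt5, Sirt6 and Sirt7 were not called, with edgeR adjusted p from 0.066 (Sirt6) to 0.56 (Sirt5).

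The 10 acetyltransferases were split evenly, with 3 higher (30.0%, against 29.5% of all genes), 3 lower (30.0%, against 29.3%) and 4 not called. Their median log2 fold change was 0.00. Kat6b, a MYST family enzyme on chromosome 14 at 21481434 to 21672478 on the plus strand, had the largest change. Its levels were 65.9, 71.0 and 69.5 CPM with GFP and 49.9, 43.9 and 43.5 CPM with ChREBP-beta, with no overlap. Kat6b fell by 0.59 ± 0.0558 (SE) on the log2 scale, 1.5-fold (edgeR adjusted p = 2.2e-09). Its paralog Kat6a averaged 172 and 183 CPM, and although it passed the test (edgeR adjusted p = 0.0357), its groups overlapped and the call was lost under some alternatives. Per kilobase, Kat6b made up 32.1% of the Kat6 sum with GFP and 22.8% with ChREBP-beta.

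In the Kat2 pair both genes were called, in opposite directions. Kat2b (PCAF), known to acetylate MyoD, fell 1.24-fold from 47.9 to 38.7 CPM (edgeR adjusted p = 0.000136). Kat2a (GCN5), the acetyltransferase of the SAGA and ATAC complexes, rose 1.15-fold from 76.0 to 87.3 CPM (edgeR adjusted p = 0.000259). The share of Kat2b in the pair, per kilobase, was 29.2% with GFP and 22.5% with ChREBP-beta. Kat14, another subunit of ATAC, rose 1.30-fold from 51.7 to 67.5 CPM (edgeR adjusted p = 2.83e-07). Ep300 and Crebbp, the broad coactivator acetyltransferases, averaged 173 and 164 CPM (edgeR adjusted p = 0.0705) and 79.2 and 81.8 CPM (edgeR adjusted p = 0.341), and neither was called. Ep300 was called lower under 4 alternatives, with library size alone at an edgeR adjusted p of 0.00756.

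Of the 18 genes classed by symbol as lysine methyltransferases, 4 rose (22.2%, against 29.5% of all genes), 6 fell (33.3%, against 29.3%) and 8 were not called. Ezh1, a catalytic subunit of Polycomb repressive complex 2 that prevails in cells that have stopped dividing, lies on chromosome 11 at 101191115 to 101226463 on the minus strand. It was at 34.8, 35.6 and 37.0 CPM with GFP and at 17.7, 16.4 and 15.5 CPM with ChREBP-beta. The spread within each group was small beside the gap, and the fall was 1.11 ± 0.072 (SE) on the log2 scale, 2.17-fold (edgeR adjusted p = 1.73e-12). Ezh2, its counterpart in dividing cells, averaged 75.3 and 73.4 CPM (edgeR adjusted p = 0.522). Per kilobase, Ezh1 made up 24.0% ± 1.05 (SD, n = 3) of the Ezh sum with GFP and 13.0% ± 0.474 with ChREBP-beta.

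The Kmt2 and Setd1 genes, several of which encode enzymes that methylate the active-promoter lysine of histone H3, did not move together. Kmt2c, which acts at enhancers, was at 103, 109 and 110 CPM with GFP and at 74.8, 69.9 and 70.9 CPM with ChREBP-beta, with groups far apart for their spread. It fell by 0.57 ± 0.042 (SE) on the log2 scale, 1.49-fold (edgeR adjusted p = 1.8e-11). Kmt2a (MLL1) fell 1.15-fold from 207 to 180 CPM (edgeR adjusted p = 1.59e-05), and Kmt2b, Kmt2d and Kmt2e were not called. Kmt2d was called lower with library size alone (log2 fold change -0.10) and higher with the length and GC offset (0.10), so it has no settled direction. Setd1b fell 1.30-fold from 40.8 to 31.4 CPM (edgeR adjusted p = 3.78e-05) and its paralog Setd1a rose 1.16-fold from 69.8 to 81.0 CPM (edgeR adjusted p = 0.000165). The Setd1b share of that pair was 29.9% per kilobase with GFP and 22.1% with ChREBP-beta.

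Kmt5a, which adds the first methyl group to histone H4 and acts in the cell cycle, was at 119, 124 and 120 CPM with GFP and at 141, 149 and 148 CPM with ChREBP-beta. Its rise was 1.21-fold (edgeR adjusted p = 5.34e-07). Kmt5c, which adds further methyl groups there, averaged 11.4 and 8.93 CPM (edgeR adjusted p = 0.014), and Kmt5b, Setd6 and Setd7 also passed the test, but the calls of these 4 were not kept under every alternative. Setd2, Setd3, Setd4 and Setd5 were not called.

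Demethylase genes gave 2 rises (12.5%, against 29.5% of all genes), 7 falls (43.8%, against 29.3%) and 7 not called among 16. Kdm8, a Jumonji family hydroxylase on chromosome 7 at 125444676 to 125462269 on the plus strand, stood at 7.53, 6.03 and 6.07 CPM with GFP and at 9.25, 10.9 and 9.60 CPM with ChREBP-beta. All ChREBP-beta values were above the highest GFP value, and the rise was 0.60 ± 0.132 (SE) on the log2 scale, 1.51-fold (edgeR adjusted p = 0.0004). Kdm3a, a demethylase known to be induced by hypoxia, rose 1.14-fold from 84.8 to 96.2 CPM (edgeR adjusted p = 0.000394).

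Kdm4b led the falls, from 31.1, 30.1 and 31.6 CPM to 22.2, 22.0 and 20.6 CPM, 1.43-fold lower (edgeR adjusted p = 5.61e-07). Kdm5b, which erases the active-promoter mark, fell 1.35-fold from 30.0 to 22.1 CPM (edgeR adjusted p = 2.94e-05). Kdm4a, the paralog of Kdm4b, fell by 0.23 on the log2 scale from 70.8 to 60.1 CPM (edgeR adjusted p = 0.000135). Kdm1a (LSD1), the flavin-dependent demethylase of the CoREST complex, fell by 0.22 from 90.2 to 77.6 CPM (edgeR adjusted p = 0.000395). Kdm6a (UTX), which removes the Polycomb mark that Ezh1 and Ezh2 place, fell by 0.21 on the log2 scale from 52.0 to 44.9 CPM (edgeR adjusted p = 0.00126), and its paralog Kdm6b was not called. Kdm4d, a testis gene, had 3 counts in 1 library and Kdm5d, a Y-linked gene, 4 counts with GFP and 1 with ChREBP-beta, so neither was tested.

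Among the 7 tested arginine methyltransferases, 2 rose (28.6%, against 29.5% of all genes), 3 fell (42.9%, against 29.3%) and 2 were not called. Prmt5, which makes symmetric dimethylarginine on histones and splicing factors, was at 95.4, 99.2 and 101 CPM with GFP and at 124 CPM in each ChREBP-beta library, 1.26-fold higher (edgeR adjusted p = 2.32e-08). Prmt3, which methylates a ribosomal protein, went from 46.3, 39.8 and 39.0 CPM to 52.5, 54.9 and 54.1 CPM, 1.29-fold higher (edgeR adjusted p = 1.49e-05). The enzymes that fell make asymmetric or, for Prmt9, symmetric dimethylarginine. Prmt2, a coactivator of nuclear receptors, fell 1.25-fold from 23.1 to 18.4 CPM (edgeR adjusted p = 0.00199). Prmt1, the main source of asymmetric dimethylarginine, averaged 107 and 97.5 CPM (edgeR adjusted p = 0.00742), and neither its call nor that of Prmt9 was kept under every alternative. Prmt8, a brain gene, had 3 counts with GFP and 1 with ChREBP-beta and was not tested.

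**Figure D4:**
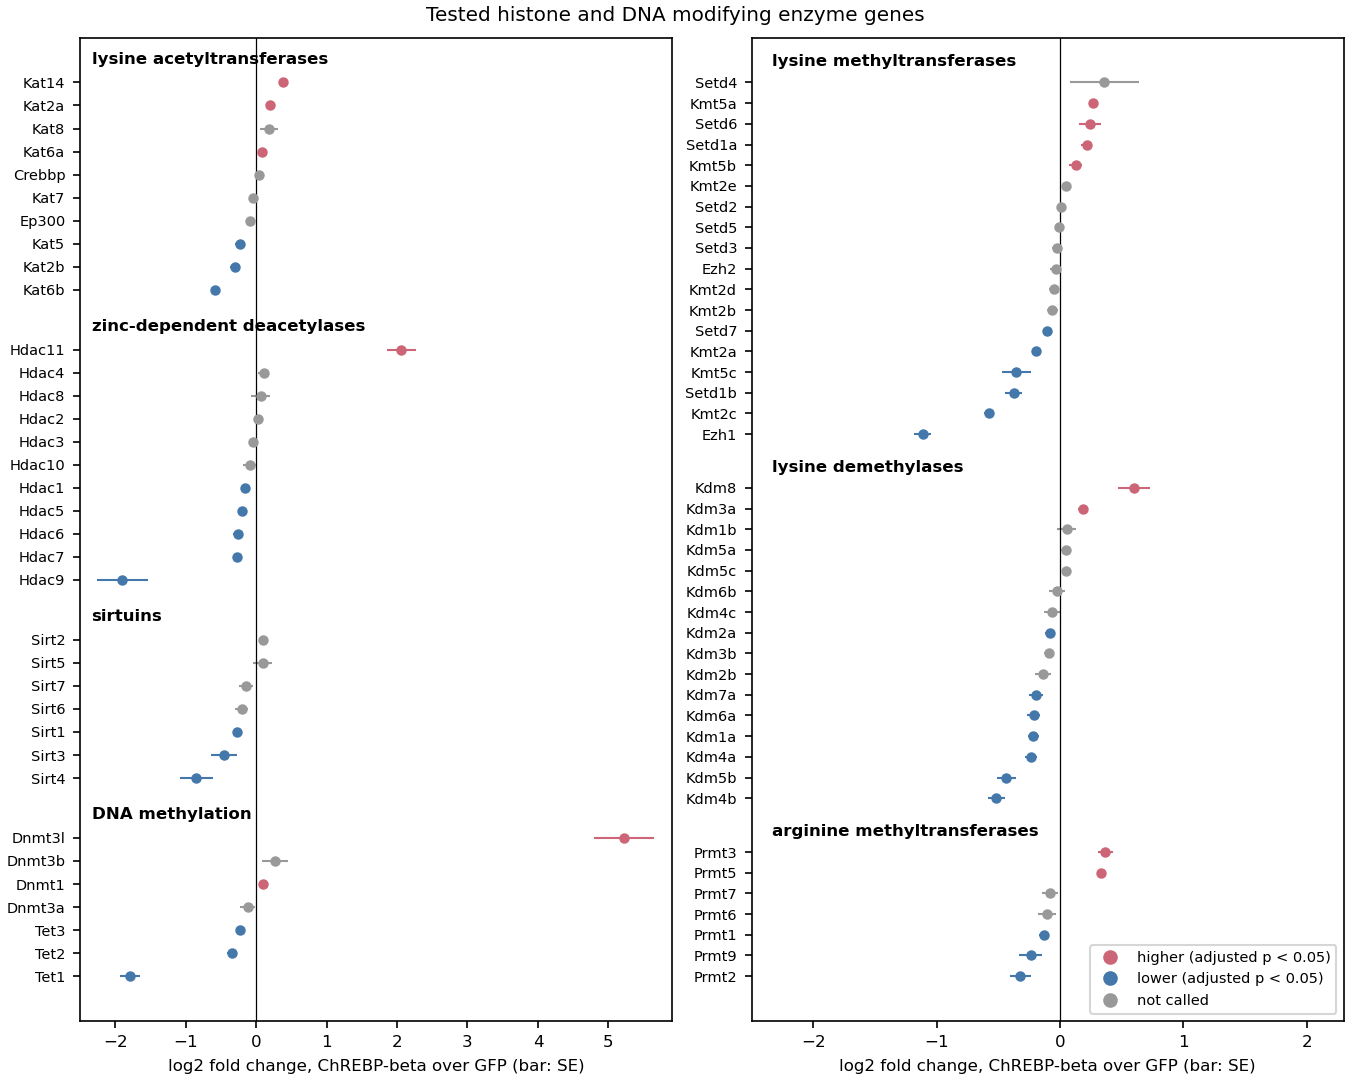
Log2 fold change of ChREBP-beta over GFP for each of the 76 tested enzymes, by class, with bars of 1 SE. The left and right panels have different horizontal scales. Red points rose, blue points fell and grey points were not called. Dnmt3l, at 5.22, stands furthest from 0.

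The genes beside the most changed enzymes were read by position, as the 4 nearest protein-coding genes on each side in GENCODE M21, a look added after the values were seen. Around Dnmt3l, 5 of 8 neighbours rose and 3 were not tested for low counts. Aire, whose start lies 1.66 kb from that of Dnmt3l on the opposite strand, had 7, 4 and 4 counts with GFP and 94, 62 and 70 with ChREBP-beta, 14.9-fold higher in CPM (edgeR adjusted p = 1.13e-09). Icosl, 27.4 kb away, had 14, 6 and 3 counts against 191, 130 and 114, 18.9-fold higher (edgeR adjusted p = 2.48e-11). The genes beyond them rose less, with Pfkl at 136 and 212 CPM (edgeR adjusted p = 1.68e-13), Pwp2 1.47-fold and Trappc10 1.14-fold higher. Dnmt3l and Aire share 67 of the 2988 exon bases of Dnmt3l (2.24%), and since the use of strand in counting is not given, reads from those bases cannot be told apart.

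Around Hdac11, 5 of 8 neighbours rose, 2 fell and 1 was not tested. Fbln2, an extracellular matrix gene 55.8 kb away, rose 2.40-fold from 347 to 832 CPM (edgeR adjusted p = 1.42e-21), Iqsec1, 168 kb away, rose 1.74-fold, and Wnt7a, 255 kb away, had 0 counts over the GFP libraries and 492 over the ChREBP-beta libraries, which is at least 166-fold higher when the GFP total is set to the limit of 3 counts. Around Ezh1, 4 neighbours fell, 1 was not called and 3 were not tested. Ramp2, 19.6 kb away, fell 6.25-fold from 4.50 to 0.710 CPM (edgeR adjusted p = 3.64e-08), and Cntnap1 fell 1.73-fold. The neighbours of Tet1 were mixed, with 3 higher, 2 lower, 2 not called and 1 not tested: Slc25a16, 11.6 kb away, was not called (edgeR adjusted p = 0.0673), and Ccar1, 117 kb away, was 1.18-fold higher. The same reading around the other members past 1.5-fold gave 1 rise and 2 falls beside Hdac9, 2 rises and 3 falls beside Kat6b, 1 rise and no fall beside Kdm8, and 1 rise and 3 falls beside Sirt4. With 29.5% of all genes called higher and 29.3% lower, these counts are a description.

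**Figure D5:**
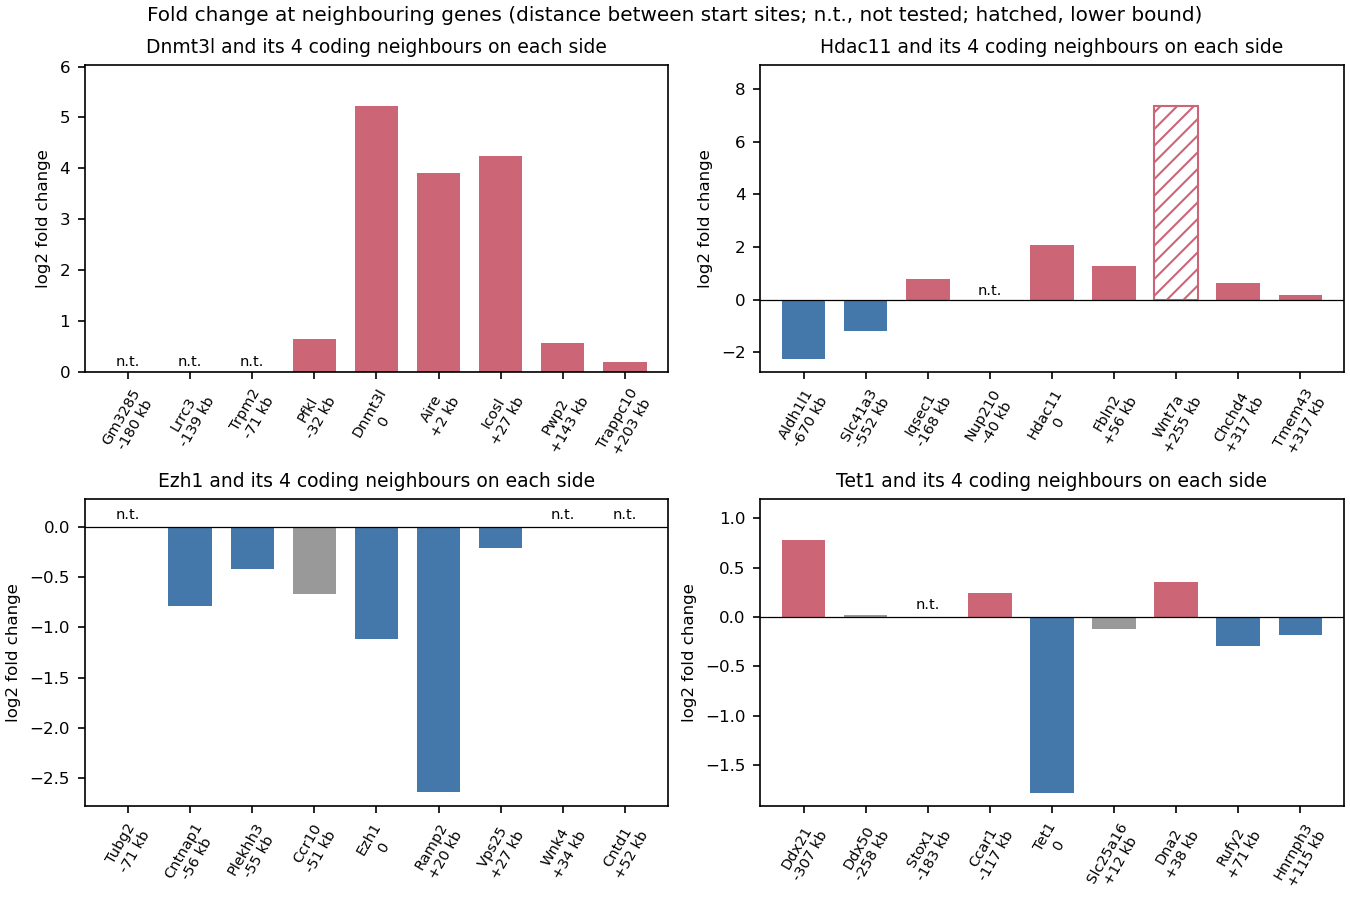
Log2 fold change of ChREBP-beta over GFP at Dnmt3l, Hdac11, Ezh1 and Tet1 and at the 4 protein-coding genes on each side, in genome order, with the distance between start sites in kb. Red bars rose, blue bars fell, grey bars were not called, n.t. marks genes not tested, and the hatched bar of Wnt7a is a lower bound. The tested neighbours of Dnmt3l all rose, and those of Tet1 went both ways.

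Genes related to these enzymes, called partner genes here, were taken as 8 lists of 172 genes. Besides complex subunits and readers, the lists hold other methyltransferases and demethylases, genes of metabolite supply, and replication and mitosis genes. The pooled counts are therefore not those of binding partners alone. Of the 172 genes, 165 were tested. Of these, 62 rose (37.6%, against 29.5% of all genes), 31 fell (18.8%, against 29.3%) and 72 were not called. The partner genes gave 48 rises and 38 falls with library size alone, and 71 and 28 with the length and GC offset. Rises made up 55.8% and 71.7% of their calls in these fits, beside 41.8% and 58.4% over all genes. The median log2 fold change of the partner genes was 0.05, beside -0.08 for the enzymes and -0.004 over all genes. Polycomb subunits, the partners of Ezh1 and Ezh2, gave 4 rises, 6 falls and 11 not called. Their share of falls was 28.6%, against 29.3% of all genes, and their share of rises was below the 29.5% of all genes. Rnf2, a ubiquitin ligase of Polycomb complex 1, fell 1.27-fold (edgeR adjusted p = 1.15e-07), and Cbx2, a chromobox protein that reads the mark placed by the Ezh enzymes, fell 1.60-fold. The core partners Suz12 and Eed, which Ezh1 and Ezh2 need for activity, rose by 0.14 and 0.15 on the log2 scale (edgeR adjusted p = 0.00104 and 0.0383). The call of Eed was lost under 11 alternatives, among them DESeq2 (adjusted p = 0.087) and library size alone (edgeR adjusted p = 0.153). The COMPASS subunits that assemble with Kmt2 and Setd1 enzymes gave 4 rises and 1 fall among 10. In this short list rises were a larger share, and falls a smaller share, than over all genes. The rises were led by Wdr5, the shared scaffold, at 60.1 and 90.8 CPM, 1.51-fold higher (edgeR adjusted p = 6.69e-12). Kmt2a and Kmt2c fell where Wdr5 rose.

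Partners of DNA methylation gave 8 rises, 2 falls and 6 not called. The rises were a larger share than the 29.5% of all genes, and the falls (12.5%) a smaller one than the 29.3%. Uhrf1, which brings Dnmt1 to newly copied DNA, fell 1.25-fold from 160 to 128 CPM (edgeR adjusted p = 8.73e-08), while Dnmt1 itself was slightly higher. Zbtb38, a reader of methylated DNA, rose 1.79-fold (edgeR adjusted p = 1.2e-16), and Gadd45b, linked to DNA demethylation, rose 1.99-fold. The other methyltransferases and demethylases outside the symbol rule gave 13 rises (46.4%), 6 falls (21.4%) and 9 not called among 28. Among them Nsd2 rose 1.32-fold (edgeR adjusted p = 2.16e-11), Jmjd6 1.52-fold and Mecom 1.69-fold. Corepressor subunits, in which class I and IIa deacetylases act, gave 7 rises (33.3%, against 29.5% of all genes) and 4 falls among 21. Acetyltransferase complex subunits and acetyl-lysine readers gave 10 rises (31.2%, against 29.5%) and 4 falls (12.5%, against 29.3%) among 32. In both lists the share of rises was near that of all genes, and the share of falls was below it. Chd3 of the NuRD complex fell 1.27-fold, Tbl1xr1 of the NCoR complexes fell 1.39-fold, and Jade2, a partner of Kat7, fell 1.84-fold (edgeR adjusted p = 5.56e-12).

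The enzymes use acetyl-CoA, S-adenosylmethionine, NAD and 2-oxoglutarate. Genes that supply these gave 6 rises (23.1%, against 29.5% of all genes), 9 falls (34.6%, against 29.3%) and 11 not called. Acly, which makes cytosolic and nuclear acetyl-CoA and is a known ChREBP target, went from 369 to 1624 CPM, 4.40-fold higher (edgeR adjusted p = 1.07e-26). Acss2, another source of nuclear acetyl-CoA, fell 1.36-fold from 55.6 to 40.9 CPM (edgeR adjusted p = 6.86e-07). Mat2a, the S-adenosylmethionine synthetase, rose 1.44-fold from 276 to 397 CPM (edgeR adjusted p = 3.86e-14), and Idh2, a mitochondrial source of 2-oxoglutarate, fell 1.46-fold (edgeR adjusted p = 9.6e-13). Replication and mitosis genes gave 10 rises (71.4%, against 29.5% of all genes), 1 fall (7.14%, against 29.3%) and 3 not called among 14. Pcna was 1.20-fold and Top2a 1.16-fold higher, and Ccne1, the 1 fall, was 1.26-fold lower (edgeR adjusted p = 0.000644). Dnmt1 and Kmt5a, whose levels are known to follow the cell cycle, also rose. The call of Dnmt1 was lost with upper-quartile scaling and with library size alone. Ezh2, the Ezh gene of dividing cells, was not called, and Uhrf1 fell 1.25-fold. The part of the cell cycle in the changes of these genes was not tested.

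Some limits of counting touch single enzymes. Of the 80 genes, 49 overlap another annotated gene, and reads of overlapping genes cannot be told apart without the strand setting. Counts in 9 of them were not whole, which means that reads were divided between genes, and 3 of these 9 (Kat5, Kat14 and Sirt3) were called.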

How the data were processed

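Bulk libraries of Trizol-extracted total RNA were prepared by Illumina protocols, per the labels' protocols. The authors deposited estimated counts per gene symbol, not normalized, as 1 table with a column for each of the 6 libraries. The submitters' processing notes list fastp, TopHat2 2.0.0 and Bowtie2 2.0.0.5. They name the chicken assembly GRCg6a, although the table holds mouse symbols. For the mouse reads, build, annotation, counter and strand setting were not given in the sources used here. Of the values, 7.74% were not whole.

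Rows of 24 repeated symbols were summed and all counts rounded. Genes were filtered with filterByExpr (minimum count 10, minimum total 15), which kept 12166, scaled by TMM and tested with edgeR 4.0.16 (R 4.3.3) in a quasi-likelihood fit of the 2 groups. The common biological coefficient of variation was 3.44%. Standard errors are the log2 fold change over the square root of the F statistic. The script was tested on simulated data. Libraries of a group were compared by a chi-square test of counts, whose value per degree of freedom was 2.15 to 3.93, so each was kept as a separate replicate. Totals of 17600238 to 19163834 counts limit precision for weakly expressed genes. Reads carry no molecular identifiers that the labels name, so counting intervals and floors cover counting error only. CPM per kilobase uses transcript lengths of GENCODE M21 (GRCm38), matched by symbol, as do all gene locations, which may differ from the build used by the authors. Promoter windows are from RefSeq.

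The members, the 8 partner lists and the marker lists were chosen with earlier results of these data known. Named genes are Mlxipl, in each of the 7 classes up to 4 called members with the smallest adjusted p, non-overlapping groups and at least 1 CPM on average in the higher one, every called member past 1.5-fold, the Tet, Dnmt and Ezh genes, Ep300, Crebbp, the members not tested, up to 3 genes of each partner list and up to 2 of each marker list. A gene that this rule picks is not reported here. Other genes were named after their values were seen. Alternatives were another normalization (RLE, upper quartile, library size alone), no filter or a minimum average of 5 CPM, limma 3.58.1 (voom), DESeq2 1.42.0, a replicate block, an offset for length and GC content, a 1.5-fold minimum, and each library left out.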

Additional observations from a re-analysis of the deposited data

How the results depend on the processing

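Of the 44 called enzymes, 34 were called in the same direction under every alternative that tested the gene (the 1.5-fold minimum aside), including Dnmt3l (log2 fold change 4.89 to 6.16), Hdac11 (1.97 to 2.22), Kdm8 (0.53 to 0.71), Tet1 (-1.90 to -1.69), Hdac9 (-2.06 to -1.70), Ezh1 (-1.16 to -1.07), Sirt4 (-0.91 to -0.79) and Kat6b (-0.65 to -0.55). The calls of Dnmt1, Kat6a, Kdm2a, Kmt5b, Kmt5c, Prmt1, Prmt9, Setd6, Setd7 and Sirt3 were lost under at least 1 alternative, and the cause was not tested. Calls were gained under at least 1 alternative by Ep300, Kdm3b, Kdm2b, Sirt6 and Kat7 (lower) and by Hdac2, Kdm5c, Kmt2e and Sirt2 (higher). Kmt2d was called lower with upper-quartile scaling (-0.086) and library size alone (-0.100) and higher with the offset (0.098). Rises and falls among the enzymes numbered 11 and 27 with DESeq2, 14 and 30 with voom, 14 and 29 without a filter, and 11 to 14 and 25 to 29 without 1 library. With a minimum of 1.5-fold, 3 enzymes rose and 5 fell, 8 and 5 partner genes did, and 907 and 1505 of all genes did, fewer by the construction of that rule. The median log2 fold change of the enzymes was -0.113 with upper-quartile scaling, -0.127 with library size alone and -0.034 with the length and GC offset, where that of all genes was -0.037, -0.050 and 0.047. It was -0.081 to -0.061 without 1 library.

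A sign turned for 10 enzymes, none of which was called with the test as reported. With the offset these were Ezh2 (0.018), Hdac3 (0.009), Kdm6b (0.039), Kmt2d (0.098), Setd3 (0.021) and Setd5 (0.018). Hdac2 (-0.012) and Setd2 (-0.035) turned with library size alone, and Setd2 also with upper-quartile scaling (-0.021) and a mean CPM of at least 5 (-0.004). Without 1 library the ranges were -0.079 to 0.002 for Ezh2, -0.010 to 0.165 for Hdac8, -0.053 to 0.027 for Kdm6b, -0.016 to 0.037 for Setd2, -0.050 to 0.001 for Setd3, -0.024 to 0.014 for Setd5 and -0.003 to 0.196 for Sirt5.

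With the replicate number as a block, 12 enzymes rose and 28 fell, beside 3474 and 3428 of all genes. Deviations of libraries with the same number correlated at -0.04 to 0.00151, and 0 of 3 GFP libraries correlated best with the ChREBP-beta library of its own number, so the numbers were not read as pairs.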
